A study of Caenorhabditis elegans with 10 samples.

Results

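The mitochondrial ribosomal protein genes of Caenorhabditis elegans were compared between gas-1(fc21) mutant worms and wild-type worms. A gene was taken as a member when the platform annotation gave its probe set 1 gene only and that symbol began with mrpl- or mrps- and a number. Where a gene had several such probe sets, the one with the highest mean over all 10 arrays was used. This gave 59 genes of 17138 measured genes, 34 of the large subunit (mrpl) and 25 of the small subunit (mrps). The annotation had 65 probe sets that named 1 of these genes alone, of which 1 per gene was used. All 59 genes matched the RefSeq gene table of assembly WBcel235. That table names 71 such genes, of which 12 had no probe set of their own in the annotation used here, and 2 of those 12, mrpl-13 and mrpl-58, were read only on probe sets shared with another gene and were left out.

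The mitochondrial ribosome translates the few messages of the mitochondrial genome, which in animals encode core subunits of the respiratory chain and of ATP synthase. Its RNAs are transcribed from mitochondrial DNA, whereas its proteins are encoded in the nucleus, made in the cytosol and imported, so the particle is assembled from the products of both genomes. The small subunit decodes the message, and the large subunit joins the amino acids. Many of its proteins have counterparts in the bacterial ribosome and the others are specific to mitochondria. In C. elegans, knockdown of the small subunit gene mrps-5 is known to extend lifespan and to activate the mitochondrial unfolded protein response.

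The mutant carried gas-1(fc21), a missense allele of a core subunit of respiratory complex I, in whole animals, and the control was the N2 (Bristol) wild type, with no agent given to either. Both were young adults grown on OP50 E. coli and sorted by size, with 5 biological replicates per genotype and 1 array per replicate. The number of arrays limits the precision, and the labels do not say whether the replicates came from separate cultures or days, so p-values measure only the spread between these samples. Values are log2 intensities as deposited, so a difference of 1 is a doubling. The medians of the arrays over all probe sets ran from 6.22 to 6.61 (range 0.386). The median difference over all probe sets was 0.003.

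Genes marking sperm (19 measured), germ line and oocyte (15), intestine (11), body wall muscle (11) and neurons (11) were read in these whole worms, and none was at or below the background controls on all arrays. Several arrays stood apart within their group. The log2 of the summed sperm marker level was 13.38 on wild-type replicate 5 and 16.16 to 16.25 on the other wild-type arrays. Mutant replicates 4 and 5 had 15.07 and 14.98, and the other mutant arrays 11.66 to 11.75. The gas-1 transcript itself was at 10.89 to 11.34 on mutant and 10.12 to 10.57 on wild-type arrays, and because the allele is a missense change its level does not check the labels. Wild-type replicate 1 had the highest median of the background controls, 5.25 against 4.39 to 4.75 on the other arrays. Because whole animals were measured, a change in the share of a cell type and a change of transcript per cell cannot be told apart.

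Few mitochondrial ribosomal protein genes passed the test, and those that did were of the small subunit and lower in the mutant. Of the 25 small subunit genes, 2 fell (mrps-23 and mrps-25), 0 rose and 23 did not pass. Of the 34 large subunit genes, 0 rose, 0 fell and 34 did not pass. The test was limma over all 22548 probe sets with Benjamini-Hochberg adjustment and a threshold of 0.05. Over all of those probe sets 4.28% fell and 7.54% rose, with 4.46% falling when each gene was counted by 1 probe set, so 2 falls among 59 genes are near the background. At an unadjusted p under 0.05, limma had 1 large subunit gene higher and 4 lower, and 3 small subunit genes higher and 6 lower. Over all genes 14.4% were higher and 11.3% lower at that level.

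The differences were small in both directions. Mutant minus wild type ran from −0.25 to 0.35 in the large subunit and from −0.40 to 0.25 in the small subunit. The median was −0.06 for the large and −0.04 for the small subunit, and 21 of 34 and 17 of 25 genes had a negative difference. None of the 59 differences reached 0.5, which is 1.41-fold. For 50 of the 59 genes the whole 95% interval lay within 0.5 of zero. The intervals excluded a rise of 0.5 for 56 genes and a fall of 0.5 for 53, so for most members a change of that size lay outside the gene's own interval. Each interval is for 1 gene alone and takes the arrays as independent, although most members shifted together on some arrays. The standard error (SE) of a difference was 0.06 to 0.24, and apart from mrps-23 and mrps-25 no smaller difference passed.

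**Figure D1:**
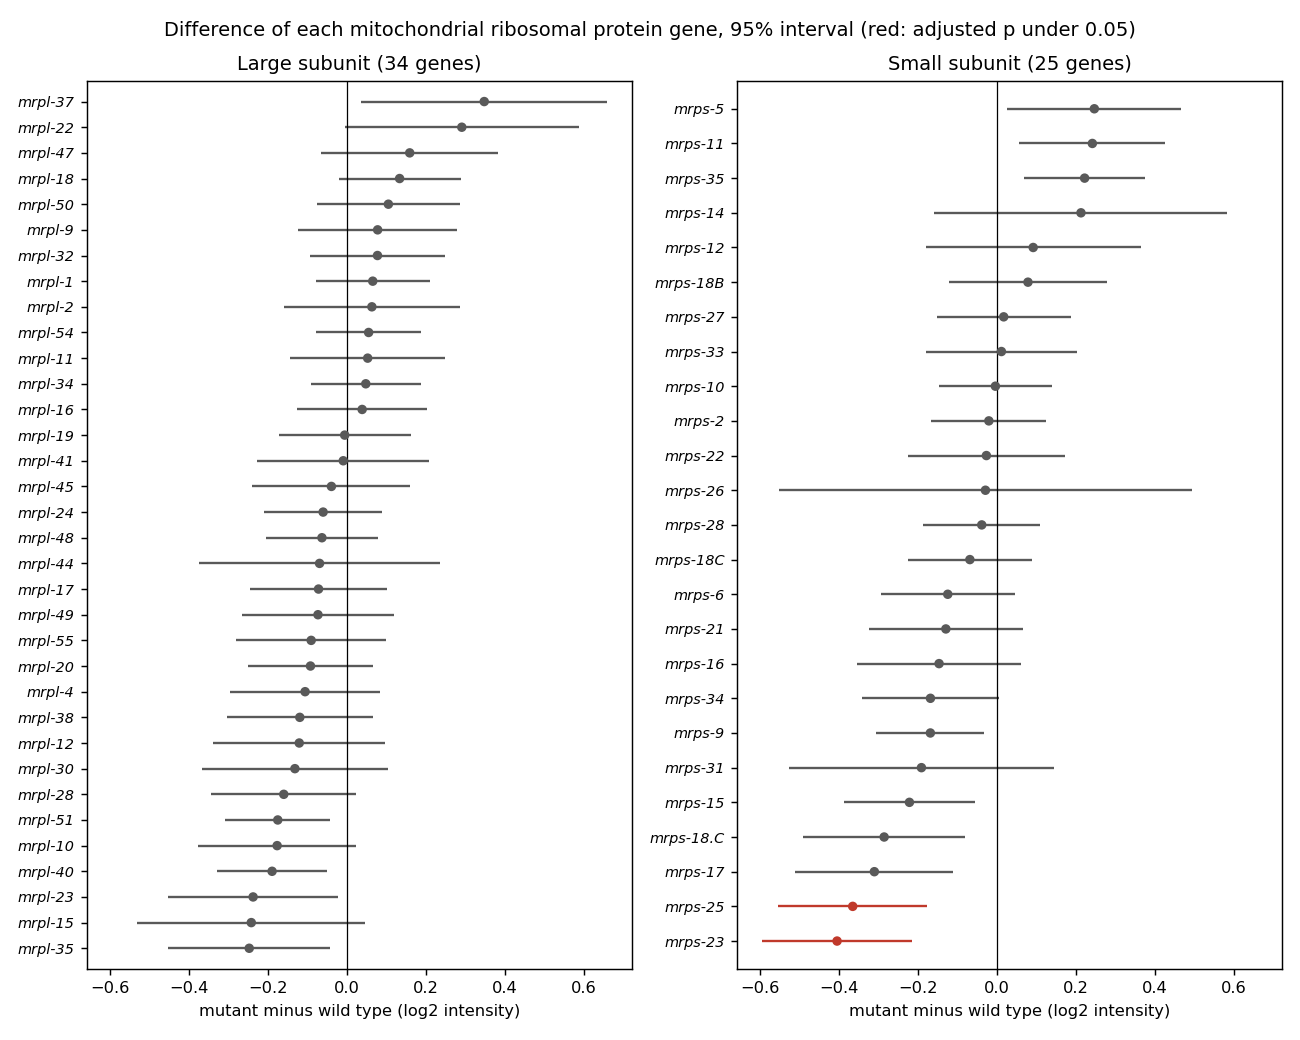
Mutant minus wild-type difference (log2 intensity) for each of the 34 large and 25 small subunit genes, with its 95% interval from limma. The 2 red genes at the foot of the small subunit panel, mrps-23 and mrps-25, passed the test; every other interval is grey.

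The gene mrps-23 encodes a small subunit protein specific to mitochondria and had the largest fall. On mutant replicates 1 to 5 it was at 9.54, 9.60, 9.49, 9.79 and 9.70. On wild-type replicates 1 to 5 it was at 10.18, 10.01, 10.07, 10.02 and 9.84. The groups did not overlap, although mutant replicate 4 and wild-type replicate 5 were only a short step apart. The means were 9.62 ± 0.12 and 10.03 ± 0.12 (SD, n = 5). The mutant was 1.32-fold lower (−0.40, SE 0.09, limma adjusted p = 0.0122, exact permutation p = 0.00794, the smallest that 252 assignments can give).

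The gene mrps-25 encodes another small subunit protein specific to mitochondria. It was at 9.18, 9.38, 9.29, 9.29 and 9.27 on mutant replicates 1 to 5, and at 9.76, 9.69, 9.72, 9.70 and 9.37 on wild-type replicates 1 to 5. Here the groups touched, because wild-type replicate 5 lay just below mutant replicate 2 and far under the other 4 wild-type arrays. The means were 9.28 ± 0.07 and 9.65 ± 0.16 (SD, n = 5), 1.29-fold lower in the mutant (−0.37, SE 0.09, adjusted p = 0.0197, exact permutation p = 0.0159). The call ended without wild-type replicate 2, 3 or 4, without mutant replicates 4 and 5 together and with the replicate number as a block (highest adjusted p = 0.0776). The call for mrps-23 ended with the block alone (adjusted p = 0.0770).

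A further group of small subunit genes had negative differences that did not pass. They were chosen for mention after their values were seen. The gene mrps-17, whose protein has a bacterial counterpart, was at 9.52, 9.59, 9.52, 9.84 and 9.84 on the mutant arrays and at 10.03, 10.00, 10.03, 10.00 and 9.81 on the wild-type arrays. Mutant replicates 4 and 5 lay above wild-type replicate 5 and below the other wild-type arrays. The difference was −0.31 (SE 0.09, adjusted p = 0.0501), just outside the threshold. For mrps-18.C it was −0.29 (SE 0.09, adjusted p = 0.0746), for mrps-15 −0.22 (SE 0.07, adjusted p = 0.0862) and for mrps-9 −0.17 (SE 0.06, adjusted p = 0.110). All 5 mutant arrays were below all 5 wild-type arrays for mrps-9 and overlapped them for mrps-15 and mrps-18.C.

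The small subunit also held 3 genes with positive differences above 0.2 at an unadjusted p under 0.05, none of which passed the adjusted threshold. The gene mrps-5, which encodes the protein known from lifespan work, was at 10.28, 10.41, 10.42, 10.74 and 10.74 on the mutant arrays and at 10.33, 10.28, 10.27, 10.29 and 10.18 on the wild-type arrays. Mutant replicate 1 lay among the wild-type arrays and mutant replicates 4 and 5 were well above them. The difference was 0.25 (SE 0.10, adjusted p = 0.147), with a 95% interval that reached 0.47. The gene mrps-11, on the brightest small subunit probe set, had a mutant mean of 10.89 ± 0.16 and a wild-type mean of 10.65 ± 0.03 (SD, n = 5, difference 0.24, SE 0.08, adjusted p = 0.0922). The gene mrps-35 had 8.76 ± 0.10 and 8.54 ± 0.06 (difference 0.22, SE 0.07, adjusted p = 0.0638). Every mutant array was above every wild-type array for mrps-11 and for mrps-35. Without overlap, 2 small subunit genes were higher and 2 lower (mrps-23 and mrps-9), where 8.3% of all genes were higher and 4.9% lower.

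The S18 family gave 3 differences that did not pass. The annotation names 3 genes for mitochondrial counterparts of the bacterial protein S18, which are paralogs in animals. Their differences were 0.08 (SE 0.09) for mrps-18B, −0.07 (SE 0.07) for mrps-18C and −0.29 (SE 0.09) for mrps-18.C. Without mutant replicates 4 and 5 all 3 were negative, at −0.04, −0.12 and −0.34, and none passed. The differences between them were not tested.

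**Figure D2:**
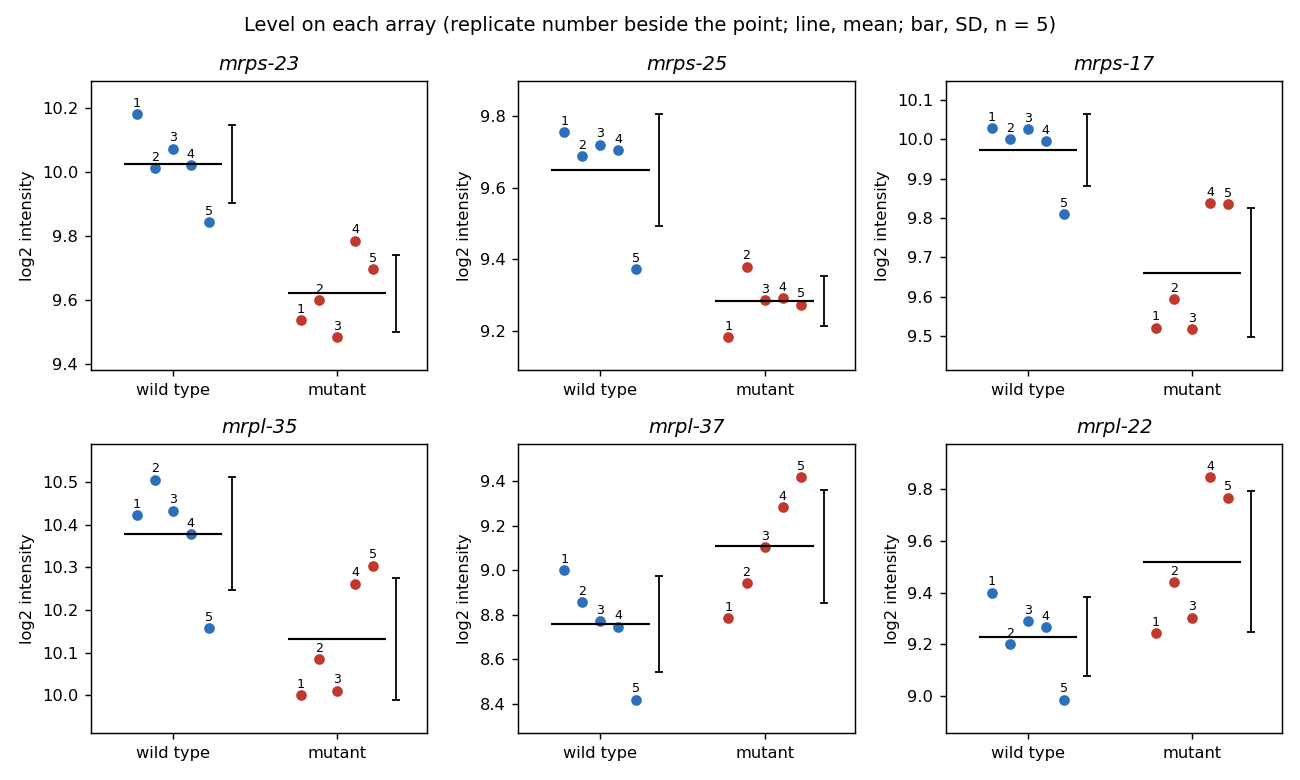
Log2 intensity on each array for mrps-23 and mrps-25, which passed the test, and for mrps-17, mrpl-35, mrpl-37 and mrpl-22, which did not. Numbers beside points are replicates, lines are means and bars are SD (n = 5). Wild-type replicate 5 is the lowest wild-type array in all 6 panels, and mutant replicates 4 and 5 are the highest mutant arrays in 5 of them.

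In the large subunit no gene passed, and the 3 with the largest differences are given as values. The gene mrpl-37, for a protein specific to mitochondria, was at 8.78, 8.94, 9.10, 9.29 and 9.42 on the mutant arrays and at 9.0, 8.86, 8.77, 8.75 and 8.42 on the wild-type arrays. The groups overlapped widely, and the difference was 0.35 (SE 0.14, adjusted p = 0.148). The gene mrpl-22, for a counterpart of a bacterial protein that lines the exit tunnel, was at 9.24, 9.44, 9.30, 9.85 and 9.77 on the mutant arrays and at 9.40, 9.20, 9.29, 9.27 and 8.99 on the wild-type arrays. Mutant replicates 2, 4 and 5 lay above every wild-type array, replicate 2 only just, and the difference was 0.29 (SE 0.13, adjusted p = 0.207). The gene mrpl-35 was at 10.00, 10.09, 10.01, 10.26 and 10.30 on the mutant arrays and at 10.42, 10.51, 10.43, 10.38 and 10.16 on the wild-type arrays. There wild-type replicate 5 lay below mutant replicates 4 and 5, and the difference was −0.25 (SE 0.09, adjusted p = 0.119).

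Below these, mrpl-15 (−0.24, SE 0.13) and mrpl-23 (−0.24, SE 0.10) had similar differences with overlapping groups. The groups did not overlap for 2 of the 34 large subunit genes, mrpl-40 and mrpl-51, both lower in the mutant. Both genes encode proteins specific to mitochondria. Of all genes, 4.9% were lower without overlap, so 2 of 34 are near the background. For mrpl-40 the mutant arrays ran from 10.02 to 10.10 and the wild-type arrays from 10.12 to 10.32 (difference −0.19, SE 0.06, adjusted p = 0.0827). For mrpl-51, on the brightest large subunit probe set, they ran from 10.98 to 11.11 and from 11.14 to 11.25 (difference −0.17, SE 0.06, adjusted p = 0.0898). On the positive side, mrpl-47 had 0.16 (SE 0.10), mrpl-18 0.13 (SE 0.07) and mrpl-50 0.11 (SE 0.08). Differences of the remaining large subunit genes lay between mrpl-10 at −0.18 (SE 0.09) and mrpl-9 at 0.08 (SE 0.09), with mrpl-19, the counterpart of bacterial L19, at −0.01 (SE 0.08).

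Members with a bacterial counterpart were set beside those specific to mitochondria, a division drawn up after the values were seen and so not tested. In the large subunit the median difference was −0.03 over 22 genes with a counterpart and −0.07 over 12 specific genes. In the small subunit it was −0.05 over 16 genes and −0.03 over 9 genes. Over all genes the median difference was 0.00, with quartiles at −0.15 and 0.16. Both falls were of genes specific to mitochondria.

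Signal above background was not the limit for most members. The probe sets of 58 of the 59 genes were above the median of the background controls on every array. The exception, mrps-31, had a mutant mean of 4.03 ± 0.14 and a wild-type mean of 4.22 ± 0.34 (SD, n = 5), below the control median of each array, so its difference is not read. The dimmest large subunit probe set, that of mrpl-45, had 5.88 ± 0.07 and 5.92 ± 0.17 (difference −0.04, SE 0.09). The probe set of mrps-26 was dim as well (5.96 ± 0.53 and 5.99 ± 0.26) and had the largest standard error of all members. Of the 59 probe sets 13 carry a suffix that marks probes shared with other transcripts, mrpl-37, mrpl-44, mrps-11 and mrps-14 among them.

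Several probe sets of 1 gene gave small differences throughout. Of the 5 genes with more than 1 probe set, mrpl-38, mrpl-4 and mrps-16 had differences of 1 sign on all of them, between −0.23 and −0.11. The 3 probe sets of mrpl-44 gave −0.07, −0.02 and 0.05 (SE 0.14, 0.17 and 0.07), and the 2 of mrps-28 gave −0.04 and 0.03 (SE 0.07 and 0.08). No probe set of these 5 genes passed. The 2 probe sets that name a second gene as well gave −0.19 (SE 0.08) for mrpl-13 with F13G3.7 and −0.04 (SE 0.10) for mrpl-58 with osg-1, and neither passed.

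The members moved together from array to array within each genotype. The mean log2 over the 34 large subunit genes was 9.59, 9.71, 9.67, 9.84 and 9.85 on mutant replicates 1 to 5, and 9.80, 9.78, 9.80, 9.79 and 9.63 on wild-type replicates 1 to 5. The mean over the 25 small subunit genes was 9.20, 9.32, 9.27, 9.45 and 9.45 on the mutant arrays, and 9.44, 9.42, 9.44, 9.44 and 9.28 on the wild-type arrays. Both subunits thus had the same 2 mutant arrays at the top and the same wild-type array at the foot. Wild-type replicate 5 was the lowest wild-type array for 48 of the 59 genes, where 38.8% of all genes had that order, and its median over all probe sets (6.22) was the lowest of the 10 arrays. Mutant replicates 4 and 5 were both above the other 3 mutant arrays for 40 of the 59 genes, where 29.9% of all genes had that order. Mutant replicates 1 to 3 were all below every wild-type array for 18 of the 59 genes and all above for 2, where 9.0% of all genes were below and 10.6% above. Those 3 arrays were the low mutant arrays for most members, so a count on them alone leans toward below by construction. The members also moved together, so these 18 genes are not separate evidence of a fall. The median SD was 0.14 among mutant arrays and 0.08 among wild-type arrays.

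Some measures of the arrays had a similar order and others the opposite one. The upper quartile of all probe sets was 8.90 and 8.95 on mutant replicates 4 and 5, 8.72 to 8.80 on mutant replicates 1 to 3, 8.69 on wild-type replicate 5 and 8.76 to 8.78 on the other wild-type arrays. The log2 sum of the body wall muscle markers was 15.43 and 15.41, 15.01 to 15.08, 14.56 and 14.995 to 15.05 on the same 4 sets of arrays. The sperm markers, given above, were low on wild-type replicate 5 and mutant replicates 1 to 3, where the mean of both subunits was also low (9.48, and 9.43 to 9.55). That mean was 9.63 to 9.65 on wild-type replicates 1 to 4 and 9.67 and 9.68 on mutant replicates 4 and 5. Of the 19 sperm markers 1 fell and 0 rose in the main test, although 18 had a negative difference, with a median of −2.69, and 17 were lower at an unadjusted p under 0.05. Of the 11 muscle markers 2 rose and 0 fell, and of the 11 neuron markers 1 rose and 0 fell. Of the 15 germ line and oocyte markers 1 fell and 0 rose, and of the 11 intestinal markers 1 fell and 0 rose. Over all genes 7.54% rose and 4.46% fell in that test. At an unadjusted p under 0.05 in limma, 14.4% were higher and 11.3% lower. With lists this short, 1 or 2 calls are not read as a result about a cell type. The summed germ line and oocyte level ran the other way within each genotype. It was 15.60 on wild-type replicate 5 against 15.43 to 15.47 on the other wild-type arrays, and 15.31 and 15.34 on mutant replicates 4 and 5 against 15.43 to 15.56 on the other mutant arrays. The intestinal level was 16.34 on wild-type replicate 5 and 16.21 to 16.23 on the other wild-type arrays, and 16.01 to 16.16 on the mutant arrays. For neurons it was 12.03 to 12.49 and 11.75 to 11.995. The part of these cell types in the ribosomal protein levels was not tested.

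**Figure D3:**
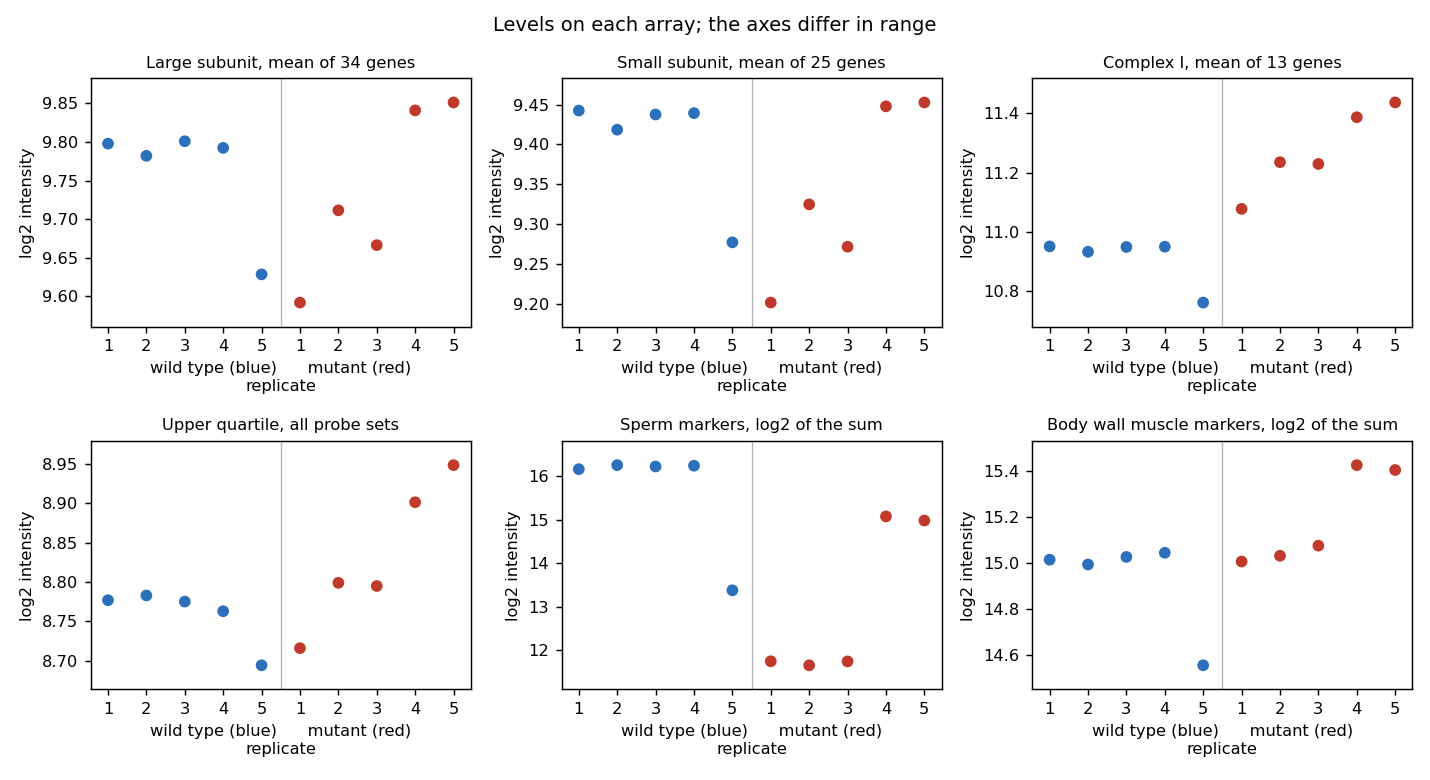
Level on each of the 10 arrays (log2 intensity) for the mean of the large subunit, the small subunit and complex I genes, the upper quartile of all probe sets, and the summed sperm and body wall muscle markers. In both ribosomal panels wild-type replicate 5 sits with mutant replicates 1 to 3, and mutant replicates 4 and 5 sit at or above the other wild-type arrays.

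The counts of falls depended on those arrays. The arrays left out were chosen with earlier results of these data known. Mutant replicates 4 and 5 were high and wild-type replicate 5 was low for most members. Leaving those arrays out therefore lowers the members' differences by construction, and the counts without them are not separate evidence of a fall. Without mutant replicates 4 and 5, 1 large and 2 small subunit genes fell, where 3.49% of all probe sets fell, and 47 of the 59 differences were negative against 38 with all arrays. The genes were mrpl-10 (−0.30, SE 0.07), mrps-17 (−0.43, SE 0.08) and mrps-23 (−0.48, SE 0.09). Without wild-type replicate 5 alone, 3 large and 5 small subunit genes fell, where 7.14% of all probe sets fell. Without mutant replicates 4 and 5 and wild-type replicates 1 and 5, 5 large and 6 small subunit genes fell and none rose, where 11.2% of all probe sets fell and 10.3% rose. Those 11 genes were mrpl-10, mrpl-15, mrpl-35, mrpl-38, mrpl-40, mrps-9, mrps-15, mrps-17, mrps-18.C, mrps-23 and mrps-25. Their differences ran from −0.22 for mrps-9 to −0.49 for mrps-23, and 50 of the 59 members had a negative difference. The number of small subunit falls was 4 without mutant replicate 4 and 1 without wild-type replicate 2, 3 or 4.

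The share of all probe sets that passed moved with the setting as well, and the members' counts are read against it. Without mutant replicates 1 to 5 in turn, 2.93%, 2.87%, 3.14%, 3.22% and 3.17% of all probe sets fell and 7.12%, 6.23%, 6.86%, 6.0% and 5.55% rose. Without wild-type replicates 1 to 4 in turn, 3.65%, 2.12%, 2.19% and 2.13% fell and 7.67%, 5.49%, 5.31% and 5.22% rose, and 8.28% rose without wild-type replicate 5. In each of these 10 settings 1 to 5 small subunit genes and 0 to 3 large subunit genes fell, and none rose. Without mutant replicates 4 and 5 together 5.13% rose, and without wild-type replicates 1 and 5 together 6.78% fell and 8.12% rose.

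The other processing settings gave 0 to 13 falls. Quantile normalization gave 1 large and 4 small subunit falls, where 5.83% of all probe sets fell and 6.92% rose. Centring gave 4 falls, all small subunit genes, where 4.83% fell and 5.7% rose. Without the dimmest probe sets 7 members fell and 1 rose (7.59% and 12.2% of all), with a variance trend 8 fell and 1 rose (5.49% and 8.64%), and with array weights 13 fell and 1 rose (11.2% and 13.2%). With the replicate block no member passed in limma, where 1.64% fell and 4.74% rose. On the mean of a gene's probe sets 3 members fell (4.85% of genes fell and 8.02% rose), and on probe sets without shared probes 2 fell (3.35% and 6.21%).

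**Figure D4:**
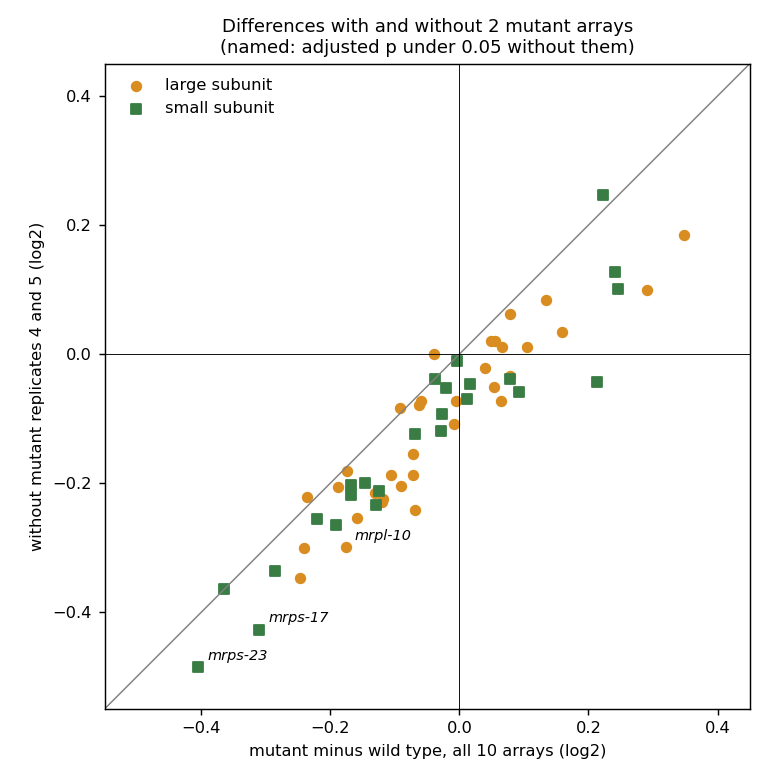
Mutant minus wild-type difference of each member over all 10 arrays (horizontal) and without mutant replicates 4 and 5 (vertical), both in log2 intensity, with the line of equality. Most points lie below the line, and mrps-23, mrps-17 and mrpl-10, named in the plot, passed the test without the 2 arrays.

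Other genes of mitochondrial gene expression, listed with some for the copying of mitochondrial DNA, went in both directions. The list had 35 genes for translation factors, tRNA synthetases and expression or copying of the mitochondrial genome. Of these, 31 were measured, 4 rose and 1 fell, where 7.54% of all genes rose and 4.46% fell. The median difference of the 31 was 0.02. Among 7 translation factors, 2 rose and 0 fell. The gene tsfm-1, for the exchange factor that recharges the elongation factor Tu of mitochondria, was at 10.45, 10.41, 10.47, 10.76 and 10.79 on the mutant arrays and at 9.91, 9.87, 9.79, 9.88 and 10.01 on the wild-type arrays. All mutant arrays were clearly above all wild-type arrays, 1.61-fold in mean (0.68, SE 0.09, adjusted p = 0.00108). The recycling factor gene mrrf-1 rose 1.18-fold (0.24, SE 0.06, adjusted p = 0.0260).

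The genes for the elongation factors themselves did not pass. The difference was 0.33 for tufm-1 (SE 0.12, adjusted p = 0.116) and 0.01 for tufm-2 (SE 0.07), both for elongation factor Tu. For gfm-1, which encodes elongation factor G, it was 0.35 (SE 0.17, adjusted p = 0.224), with mutant arrays from 9.74 to 10.77 and wild-type arrays from 9.89 to 10.03. ZK1236.1, listed for its similarity to the bacterial elongation factor LepA, had −0.23 (SE 0.08, adjusted p = 0.0847).

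Of the 15 synthetase genes, which charge tRNAs with amino acids in mitochondria or in both compartments, 0 rose and 0 fell in limma. At an unadjusted p under 0.05, 3 were higher and 1 lower, where 14.4% of all genes were higher and 11.3% lower. The nearest to the threshold were iars-2 for isoleucine (0.33, SE 0.10, adjusted p = 0.0525) and rars-2 for arginine (0.28, SE 0.08, adjusted p = 0.0573). The last set held 9 genes for the expression or copying of mitochondrial DNA. Of these, the RNA polymerase gene rpom-1 rose 1.24-fold (0.31, SE 0.07, adjusted p = 0.0214). The DNA polymerase gene polg-1, a gene for copying, rose 1.24-fold (0.31, SE 0.08, adjusted p = 0.0245). The value of rpom-1 depended on the probe set, with a difference of 0.21 (SE 0.07) on the mean of its probe sets and 0.10 (SE 0.09) on the one without shared probes, neither of which passed. The gene tfbm-1, named for a mitochondrial transcription factor B that is related to rRNA methyltransferases, fell 1.33-fold (−0.41, SE 0.08, adjusted p = 0.0103). It was at 8.59, 8.96, 8.98, 8.91 and 8.95 on the mutant arrays and between 9.24 and 9.36 on the wild-type arrays. The ribosomal gene dap-3, a small subunit protein whose symbol is not of the mrps form, had −0.06 (SE 0.10).

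The calls of tsfm-1 and tfbm-1 held under all 20 and all 21 alternatives that measured them. Those of rpom-1, polg-1 and mrrf-1 ended under 10, 9 and 10 alternatives (highest adjusted p = 0.574, 0.199 and 0.321). Neither tsfm-1 nor mrrf-1 had a probe set without a shared-probe suffix, so their calls were not checked on such probe sets. Without mutant replicates 4 and 5, 2 genes of the list rose, where 5.13% of all probe sets rose.

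**Figure D5:**
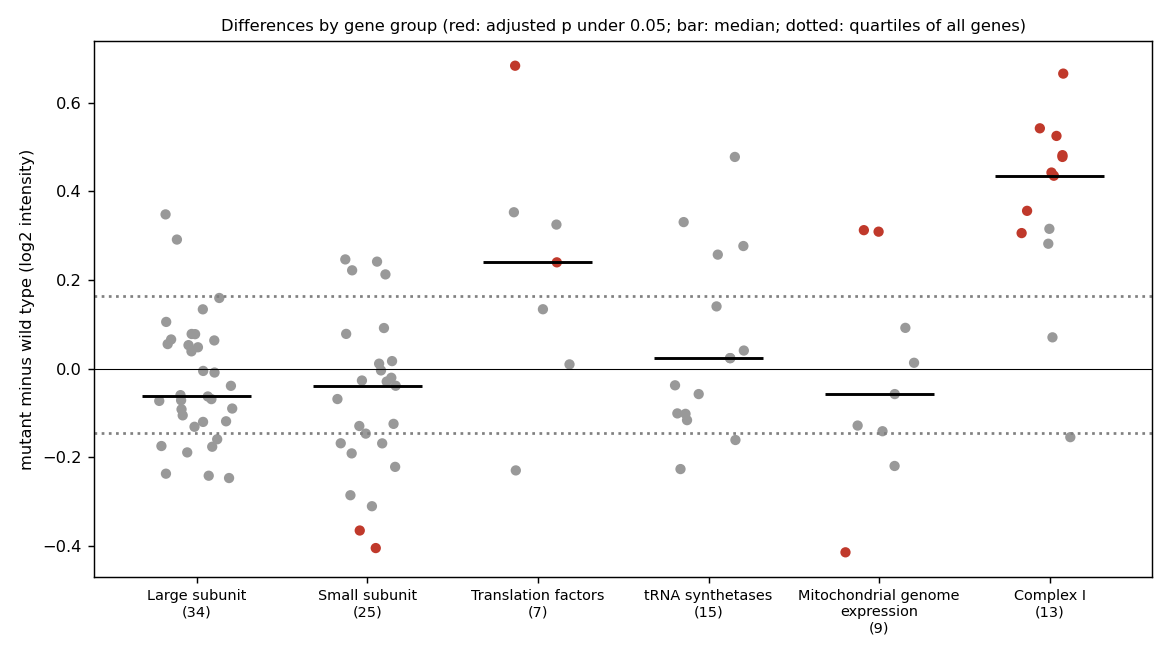
Mutant minus wild-type difference (log2 intensity) of every measured gene in the 2 ribosomal subunits, the 3 sets of other mitochondrial gene expression genes and complex I, with the number of genes in brackets. Bars are medians and dotted lines are the quartiles of all genes. Red marks 9 of the 13 complex I genes, gas-1 among them, and 2 of the 59 ribosomal genes, where 7.54% of all genes rose and 4.46% fell.

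Nuclear genes of complex I, which is built partly from the proteins that this ribosome makes, are given beside the ribosomal genes. Of the 13 with nuo, nduf, lpd-5 or gas-1 as symbol, 9 rose and 0 fell, where 7.54% of all genes rose and 4.46% fell. The mutated gene gas-1 was 1 of the 9 and had the largest difference of the 13 (0.67, SE 0.12). Any complex I genes under other symbols were not counted. The median difference of the 13 was 0.44 against −0.06 over all 59 ribosomal genes. The mean of the 13, gas-1 included, was 11.08 to 11.44 on mutant arrays and 10.76 to 10.95 on wild-type arrays, without overlap. The ribosomal means overlapped. The order of arrays within each genotype was nearly the same in both, with mutant replicates 4 and 5 highest and wild-type replicate 5 lowest. Of the 75 proteins of the cytosolic ribosome, 0 rose and 0 fell in limma, with a median difference of −0.02. At an unadjusted p under 0.05, 1 was higher and 1 lower, where 14.4% of all genes were higher and 11.3% lower. Those probe sets were bright, with a median mean signal of 13.27 where the highest value in the table was 14.21. The differences between these groups of genes were not tested.

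A pair of members are neighbours in the RefSeq gene order, mrps-2 of the small and mrpl-4 of the large subunit. Their differences were −0.02 (SE 0.07) and −0.11 (SE 0.09). The gene dap-3 lies beside mrps-22, and their differences were −0.06 (SE 0.10) and −0.03 (SE 0.09). No gene of either pair passed the test.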

How the data were processed

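Biotinylated cRNA from total RNA was read on 1 Affymetrix array per sample, per the labels' protocols. The authors deposited 1 table of log2 values. The log2 scale was inferred from the values. No label or header used here names the background correction, summary or normalization. They were analysed as deposited, since array medians ranged by less than 0.5. Of 22625 probe sets, 77 controls were left out and 22548 were tested without a filter on dim ones. Gene names came from the platform annotation, updated through the RefSeq table of WBcel235. A 2-sided test with limma 3.58.1 under R 4.3.3, using lmFit with eBayes, had genotype as the only term, with Benjamini-Hochberg adjustment over all probe sets and 95% intervals from the moderated statistic. Exact permutation tests were 2-sided. Background was the median of 27 bacterial control probe sets. The procedure was tested on simulated data with independent noise for each probe set and array. Such data lack the shifts that many genes share on some arrays here, so that test does not cover them.

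The members, lists and arrays left out were chosen with earlier results of these data known. Named genes were, per subunit, the called genes with the largest change (else the 3 largest differences), the brightest and dimmest probe sets and genes whose probe sets differed, plus up to 4 called genes per direction of the other list. Other genes named were chosen after their values were seen. Alternatives were quantile normalization, centring, a filter on dim probe sets, a variance trend, weights per array, a block for the replicate number, arrays left out, the mean of a gene's probe sets and probe sets without a shared-probe suffix. No sequences are shown.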

Additional observations from a re-analysis of the deposited data

Results flagged for a closer look

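In 36 groups of 5 arrays tested with Dixon's criterion, 5 had an array far from the other 4, where chance gives about 1 in 20. Wild-type replicate 5 was the low array in 4 of them: the mean of the large subunit (9.63, others 9.78 to 9.80), the mean of the small subunit (9.28, others 9.42 to 9.44), mrps-25 (9.37, others 9.69 to 9.76) and mrpl-44 (10.06, others 10.41 to 10.45). In the mutant, tfbm-1 was low on replicate 1 (8.59, others 8.91 to 8.98). The 36 groups are not independent, since they share arrays and the subunit means include mrps-25 and mrpl-44. The count of 5 therefore cannot be weighed against the rate of 1 in 20.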

How the results depend on the processing

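Over 21 alternatives, the number of large subunit rises stayed at 0. Large subunit falls were 1 under quantile normalization and without wild-type replicates 1 and 5, 2 without the dimmest probe sets (a fraction of 0.33) and with the variance trend, and 6 with array weights. Leaving out 1 array gave 0 to 3. Small subunit falls were 4 under quantile normalization and under centring, 5 without the dimmest, 6 with the trend, 7 with array weights, 0 with the replicate block and 1 to 5 with 1 array left out, and 1 gene rose without the dimmest, with the trend and with array weights. Without mutant replicates 4 and 5 the falls were 1 and 2, and without those and wild-type replicates 1 and 5 they were 5 and 6. For the other listed genes of mitochondrial gene expression or DNA copying, rises were 2 under quantile normalization, 1 under centring and 8 with array weights. Rises were 1 with the replicate block, 2 without mutant replicates 4 and 5 and 1 on probe sets without shared probes. With 1 array left out there were 1 to 7 rises. Falls of these genes were 2 under quantile normalization, without the dimmest and without the 4 arrays, and 3 with array weights. Of the 59 members, 15 were called lower and 2 higher (mrps-11 and mrps-35) under some alternative, and 42 under none. The share of all genes called in at least 1 alternative was not computed, so these counts have no background to be read against. The sign of 23 members (12 large and 11 small subunit genes), none of them called under any alternative, turned in at least 1 alternative. Among the genes named by rule it turned for mrpl-44 without mutant replicate 1 (0.0304) and on the probe set without shared probes (0.0542), for mrpl-45 without wild-type replicate 2 (0.0200), for mrps-28 without shared probes (0.0300) and for mrps-31 without wild-type replicates 1 and 5 (0.0052). With 1 array left out, mrpl-44 ran from −0.14635 to 0.0304 and mrpl-45 from −0.10125 to 0.0200. The causes were not tested. Deviations of same-numbered arrays correlated at −0.175 to 0.098, and those of differently numbered arrays at −0.256 to 0.316. These values cannot settle whether the replicate numbers pair the arrays, and the labels do not say. With the replicate number as a block, 0 members passed. Arrays limit precision by their number, and mrps-31 had no signal above background.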
